A study of Mus musculus with 8 samples.

Results

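The 3 chains of the interleukin-2 (IL-2) receptor, Il2ra, Il2rb and Il2rg, and 4 feedback genes of the suppressor of cytokine signalling (SOCS) family, Cish, Socs1, Socs2 and Socs3, were followed in CD4+ T cells from mouse spleen. The members were the rows of the deposited expression table carrying these symbols, 7 of 24016 genes. RNA sequencing covered 8 libraries in 4 groups of 2, with replicates lettered A and B. The monoclonal Treg group held Foxp3-GFP-positive CD4+ cells from NOD.TCRab.FoxP3GFP.Rag-/- mice, and the monoclonal non-Treg group held the GFP-negative CD4+ cells of the same strain. The polyclonal Treg and polyclonal non-Treg groups held the GFP-positive and GFP-negative CD4+ cells of NOD.FoxP3GFP mice. All groups thus shared the NOD background, the spleen and a GFP reporter for Foxp3, which is the lineage factor of regulatory T (Treg) cells. The monoclonal mice carried a single αβ T cell receptor and lacked a Rag gene, and the series title names a model made by nuclear transfer, in which a donor nucleus brings its rearranged receptor genes. The sources used here state neither which Rag gene was deleted, nor the ages of the mice, nor whether replicates A and B were different animals. The p-values therefore measure the spread between these libraries, which may be technical. In comparisons between the mice, the receptor, the Rag deletion and the strain cannot be told apart.

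IL-2 signals through a receptor of up to 3 chains. The α chain (Il2ra, CD25) raises the affinity for IL-2, the β chain (Il2rb, CD122) is shared with the receptor for IL-15, and the common γ chain (Il2rg, CD132) is shared with the receptors for IL-4, IL-7, IL-9, IL-15 and IL-21. The β and γ chains carry the kinases JAK1 and JAK3, which activate the transcription factor STAT5. STAT5 induces genes of the SOCS family, whose proteins bind activated receptors or JAK kinases through an SH2 domain and limit further signalling. Treg cells are known for constitutive CD25 and depend on IL-2 made by other cells, since Foxp3 represses the IL-2 gene.

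The recovered depth was 14076330 to 19722321 reads per library, and every member was covered by at least 88 reads in each. Levels are given as CPM, the deposited counts scaled to the library total. Foxp3 stood at 2709 and 2667 CPM in the monoclonal Treg libraries, against 405 and 319 CPM in the GFP-negative cells of those mice. The polyclonal Treg libraries had 2349 and 2281 CPM, against 81.9 and 84.2 CPM in the GFP-negative cells. Cd4 lay between 792 and 1664 CPM in all 8 libraries, and Cd8a stayed at or below 2.43 CPM. Cd8b1, the other CD8 marker, reached 14.7 to 19.8 CPM (monoclonal Treg) and 10.6 to 11.3 CPM (monoclonal non-Treg). Polyclonal libraries had 5.68 to 7.66 CPM of Cd8b1. Of these 2 CD8 markers, 1 passed as higher in monoclonal than in polyclonal Treg cells (limma). Monoclonal libraries stood apart in markers of other cells. The summed level of 13 dendritic cell markers was 5170 to 6902 CPM in monoclonal Treg libraries, with 19994 to 22339 CPM in their non-Treg counterparts, against 112 to 142 CPM (Treg) and 243 to 289 CPM (non-Treg) in polyclonal libraries. Of the 13 dendritic cell markers, 3 and 2 were at 0 reads in polyclonal Treg replicates A and B, Batf3 and Clec9a in both. Others were detected there, such as Itgax at 8.45 and 2.13 CPM and Zbtb46 at 0.852 and 2.38 CPM. The sum of 11 myeloid markers was 348 to 1110 CPM (monoclonal Treg) and 654 to 811 CPM (monoclonal non-Treg), against 38.5 to 73.5 CPM in the polyclonal libraries. B cell markers (7 genes) summed to at most 66.2 CPM in monoclonal Treg libraries, 230 to 267 CPM in their non-Treg counterparts and 29.0 to 67.3 CPM in polyclonal libraries. NK cell markers (9 genes) summed to 64.0 to 73.9 CPM (monoclonal Treg), 92.6 to 101 CPM (monoclonal non-Treg), 21.4 to 22.9 CPM (polyclonal Treg) and 54.3 to 59.1 CPM (polyclonal non-Treg). The summed CD3 genes (Cd3d, Cd3e, Cd3g, Cd247) were 1992 and 2006 CPM in monoclonal Treg libraries, 1470 and 1230 CPM in monoclonal non-Treg libraries and 1587 to 2235 CPM in the polyclonal libraries.

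Both inducible receptor chains were higher in Treg than in non-Treg cells of both kinds of mice, and the common γ chain differed little. In sorted bulk cells, fewer cells that express a gene and less RNA of it per cell cannot be told apart, and this holds for every value that follows. Il2ra (NM_008367, chromosome 2, 11564419 to 11614821 on the plus strand of mm9) measured 566 and 461 CPM in monoclonal Treg libraries, against 93.3 and 50.1 CPM in monoclonal non-Treg libraries. In polyclonal mice it measured 896 and 788 CPM in Treg libraries, against 45.8 and 48.0 CPM in non-Treg libraries. All 4 Treg libraries lay above all 4 non-Treg libraries, the lowest Treg library being monoclonal replicate B and the highest non-Treg library monoclonal replicate A. On the log2(CPM + 1) scale Il2ra rose by 2.88 ± 0.21 in monoclonal Treg cells (SE, n = 2 libraries each; limma, adjusted p = 6.69e-07) and by 4.14 ± 0.21 in polyclonal Treg cells (limma, adjusted p = 3.37e-08). The non-Treg level was 13.96% of the Treg level in monoclonal mice and 5.57% in polyclonal mice.

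Il2rb (NM_008368, chromosome 15, 78310979 to 78325496 on the minus strand of mm9) measured 521 and 422 CPM in monoclonal Treg libraries, against 138.5 and 101 CPM in monoclonal non-Treg libraries. In polyclonal mice it measured 868 and 968 CPM in Treg libraries, against 275 and 255 CPM in non-Treg libraries. The groups did not overlap in either kind of mouse, and the polyclonal non-Treg libraries lay above both monoclonal non-Treg libraries. The log2 fold change was 1.98 ± 0.15 in monoclonal mice (limma, adjusted p = 9.81e-07) and 1.79 ± 0.15 in polyclonal mice (limma, adjusted p = 4.12e-06).

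Il2rg (NM_013563, chromosome X, 98459726 to 98463545 on the minus strand of mm9) measured 921 and 1014 CPM in monoclonal Treg libraries, against 772 and 714 CPM in monoclonal non-Treg libraries. It measured 742 and 865 CPM in polyclonal Treg libraries, against 744 and 750 CPM in polyclonal non-Treg libraries. The groups were apart in monoclonal mice and overlapped in polyclonal mice. The log2 fold change was 0.38 ± 0.12 in monoclonal mice (limma, adjusted p = 0.0265), but it was -0.19 (adjusted p = 0.497) when libraries were scaled to their CD3 genes, a scaling that moved the median of all genes in this comparison by -0.53. The same call was also lost with TMM scaling (0.29, adjusted p = 0.0738) and in edgeR (0.30, adjusted p = 0.101), both with the sign kept. Relative to the CD3 shift the value was 0.34, and only CD3 scaling turned the sign. The call of Il2rg in monoclonal Treg cells thus depends on the scaling. It was lost as well without monoclonal Treg replicate B (adjusted p = 0.171), monoclonal non-Treg replicate A (0.0772) or B (0.224) and polyclonal non-Treg replicate A (0.0621) or B (0.0620). In polyclonal mice the log2 fold change was 0.10 ± 0.12 (limma, adjusted p = 0.755), with a 95% interval of -0.15 to 0.35.

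**Figure D1:**
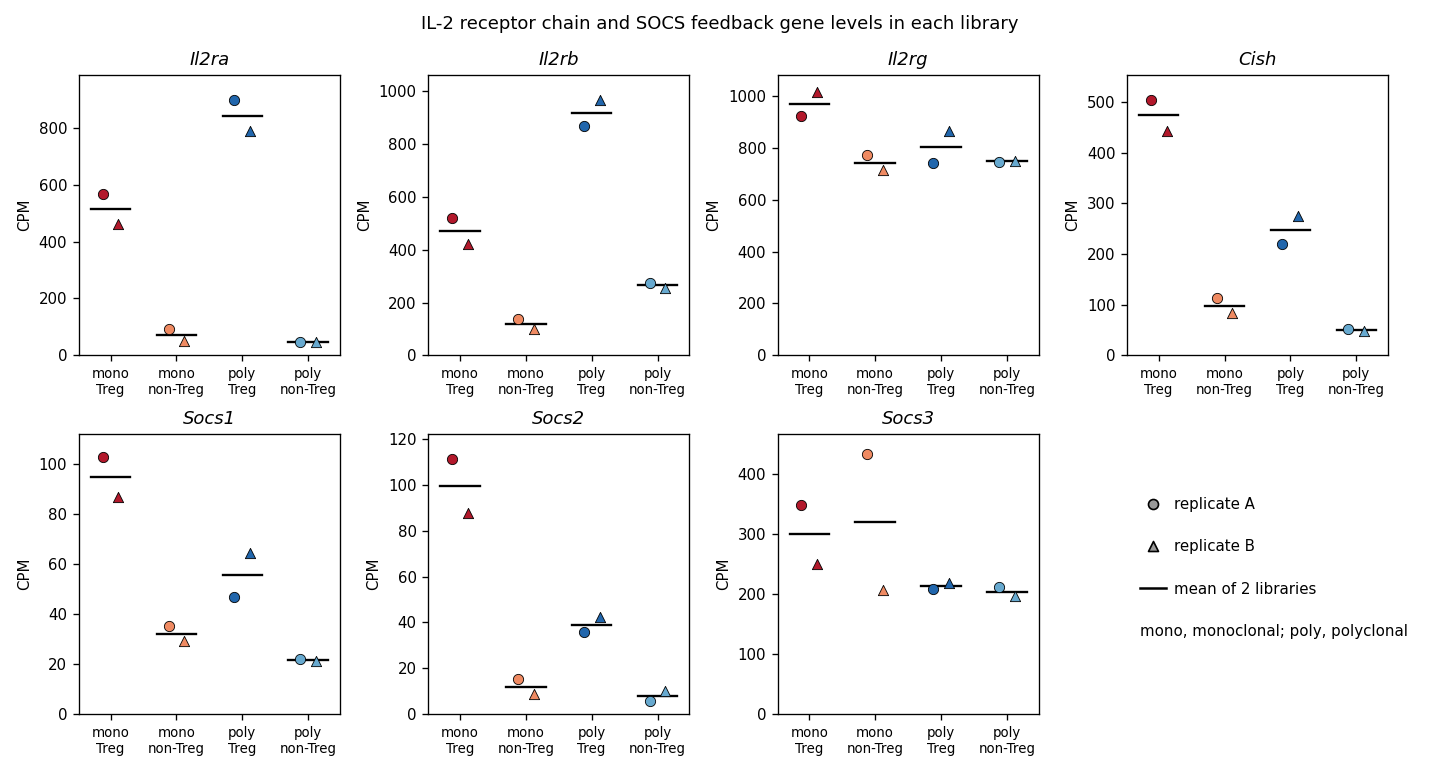
Level of each gene in CPM (linear axis from 0) in the 8 libraries, with circles for replicate A, triangles for replicate B and bars for the mean of 2 libraries. The Treg libraries of Il2ra, Il2rb, Cish, Socs1 and Socs2 lie above the non-Treg libraries of the same mice, while Socs3 ranges from 208 to 434 CPM within monoclonal non-Treg cells.

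Of the feedback genes, Cish, Socs1 and Socs2 rose in Treg cells of both kinds of mice, while Socs3 passed the test in neither. STAT dimers bind the palindrome TTCNNNGAA, and its presence near the start sites of the feedback genes was described from the 300-base promoters of RefSeq (GRCm38.p6, 250 bases before to 50 after each start), which held entries for 5 of the 7 members. A match was found in Cish, where 2 lie side by side at positions 1 to 9 and 12 to 20 counted from the transcription start, and in Socs3, where 1 lies at positions -154 to -146. The palindrome reads the same on both strands, so both were searched at once. The matches are printed in capitals because Cish is the feedback gene with the highest Treg level per length and Socs3 the one not shown to differ between the cells. The Cish window lies at chr9:107296654-107296683 on the plus strand and the Socs3 window at chr11:117969501-117969530 on the minus strand, both on GRCm38.p6.
Cish: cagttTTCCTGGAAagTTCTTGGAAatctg
Socs3: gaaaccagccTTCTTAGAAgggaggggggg
Of all 32851 promoters of the same length, 8.30% held at least 1 match and 0.457% held 2 or more. The promoters of Il2ra, Il2rg and Socs1 held no match, which says only that these letters are not in these windows. A match describes the sequence and does not show that a factor binds there.

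Cish, the cytokine-inducible SH2 protein that is induced by STAT5 and restrains it (NM_009895, chromosome 9, 107199020 to 107204292 on the plus strand of mm9), measured 505 and 443 CPM in monoclonal Treg libraries, against 112 and 83.01 CPM in monoclonal non-Treg libraries. It measured 219 and 275 CPM in polyclonal Treg libraries, against 53.0 and 48.3 CPM in polyclonal non-Treg libraries. All Treg libraries lay above all non-Treg libraries, and within each kind of cell both monoclonal libraries lay above both polyclonal libraries. The log2 fold changes were 2.28 ± 0.16 in monoclonal mice (limma, adjusted p = 5.40e-07) and 2.26 ± 0.16 in polyclonal mice (limma, adjusted p = 9.90e-07). The non-Treg level was 20.6% of the Treg level in monoclonal mice and 20.5% in polyclonal mice.

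Socs1, which inhibits JAK kinases directly (NM_001271603, chromosome 16, 10783902 to 10785629 on the minus strand of mm9), measured 103 and 86.9 CPM in monoclonal Treg libraries, against 35.0 and 29.2 CPM in monoclonal non-Treg libraries. In polyclonal mice it measured 46.7 and 64.3 CPM in Treg libraries, against 22.2 and 21.1 CPM in non-Treg libraries. The groups did not overlap, and the increases were 1.53 ± 0.20 in monoclonal mice (log2 scale; limma, adjusted p = 9.16e-05) and 1.30 ± 0.20 in polyclonal mice (limma, adjusted p = 7.20e-04).

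Socs2, known as a brake on growth hormone receptor signalling (NM_001168656, chromosome 10, 94874124 to 94878118 on the minus strand of mm9), measured 111 and 87.8 CPM in monoclonal Treg libraries, against 15.3 and 8.64 CPM in monoclonal non-Treg libraries. It measured 35.9 and 42.3 CPM in polyclonal Treg libraries, against 5.57 and 10.3 CPM in polyclonal non-Treg libraries. Again all Treg libraries lay above all non-Treg libraries. Its log2 fold change of 2.99 ± 0.30 in monoclonal mice (limma, adjusted p = 9.89e-06) was the highest of the 7 members there, and in polyclonal mice it was 2.22 ± 0.30 (limma, adjusted p = 2.79e-04).

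Socs3, which is induced by STAT3 and inhibits receptors that signal through gp130 (NM_007707, chromosome 11, 117827401 to 117830680 on the minus strand of mm9), measured 349 and 251 CPM in monoclonal Treg libraries, against 434 and 208 CPM in monoclonal non-Treg libraries. It measured 209 and 219 CPM in polyclonal Treg libraries, against 211 and 197 CPM in polyclonal non-Treg libraries. The groups overlapped in both kinds of mice, and the monoclonal replicates of each group differed by more than the Treg and non-Treg means did. The log2 fold change was -0.02 ± 0.27 in monoclonal mice (limma, adjusted p = 0.968; 95% interval -0.61 to 0.57) and 0.07 ± 0.27 in polyclonal mice (limma, adjusted p = 0.955; 95% interval -0.52 to 0.66). Both intervals end below 1.30, the smallest log2 fold change of the other feedback genes.

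In all, 6 of 7 members rose in monoclonal Treg cells, where 10.8% of the 12881 genes tested rose and 13.6% fell, and 5 of 7 rose in polyclonal Treg cells, where 4.63% rose and 3.28% fell. No member fell in either comparison, by limma, edgeR or DESeq2 or at an unadjusted p under 0.05. The median log2 fold change of the members was 1.98 in monoclonal and 1.79 in polyclonal mice, beside -0.02 and 0.00 over all genes tested. Within monoclonal non-Treg cells all 7 members were higher in replicate A than in replicate B, by 1.08 to 2.09 times, and Foxp3 was higher by 1.27 times. Members higher in A numbered 6 of 7 in monoclonal Treg, 1 in polyclonal Treg and 4 in polyclonal non-Treg cells. The share of all genes higher in A was not determined, so these counts only describe the libraries.

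**Figure D2:**
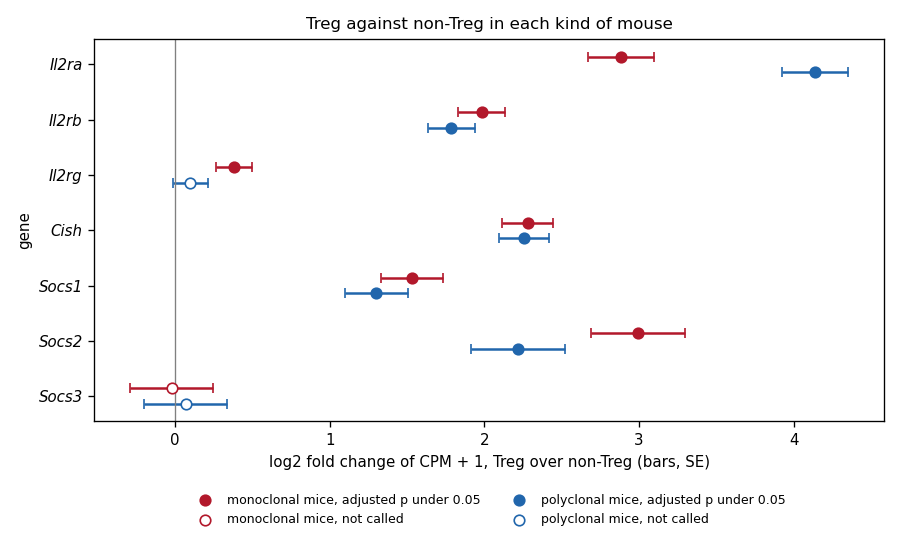
Treg over non-Treg log2 fold change of CPM + 1 for each gene, with SE bars, in monoclonal (red) and polyclonal (blue) mice; filled points passed an adjusted p of 0.05. Il2ra is the gene whose 2 points lie farthest apart, at 2.88 and 4.14, and both points of Socs3 lie at 0 within their SE.

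The design also asks whether the Treg effect itself differed between the mice. For Il2ra the monoclonal effect was smaller, by -1.25 ± 0.30 on the log2 scale (limma, adjusted p = 0.0188), the 1 call among the 7 members in a comparison where 3.64% of genes were called higher and 5.56% lower. Monoclonal Treg libraries lay below the polyclonal ones, while the non-Treg levels of the mice were not shown to differ (log2 fold change 0.54, limma, adjusted p = 0.1002) and monoclonal replicate B, at 50.1 CPM, lay close to the 45.8 and 48.0 CPM of the polyclonal libraries. The difference was -0.81 (adjusted p = 0.072) without monoclonal non-Treg replicate A and -1.69 (adjusted p = 0.00342) without replicate B, and the call was lost in 6 of the 8 fits that left out a library. The other losses were without monoclonal Treg replicate B (adjusted p = 0.0857), polyclonal Treg replicate A (0.115) or B (0.0799) and polyclonal non-Treg replicate A (0.0747) or B (0.0629). It was also lost when no filter on low values was used (adjusted p = 0.098). Foxp3, the sorted gene, differed the same way, by -1.89 ± 0.17 (limma, adjusted p = 2.42e-05), and its part in the result for Il2ra was not tested. None of the other 6 members passed. The difference was 0.02 for Cish (95% interval -0.47 to 0.52), 0.19 for Il2rb (-0.27 to 0.66), 0.23 for Socs1 (-0.38 to 0.84), 0.28 for Il2rg (-0.07 to 0.63), 0.78 for Socs2 (-0.15 to 1.702) and -0.09 for Socs3 (-0.92 to 0.74), with limma adjusted p-values of 0.299 to 0.964.

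In Treg cells compared between the mice, 2 receptor chains fell and 3 feedback genes rose. In monoclonal against polyclonal Treg cells Il2ra fell by 0.72 ± 0.21 (log2 scale; limma, adjusted p = 0.0251) and Il2rb fell by 0.96 ± 0.15 (adjusted p = 4.03e-04). Cish rose by 0.94 ± 0.16 (limma, adjusted p = 7.86e-04), Socs1 by 0.77 ± 0.20 (adjusted p = 0.0123) and Socs2 by 1.32 ± 0.30 (adjusted p = 0.00587). Il2rg had a log2 fold change of 0.27 (adjusted p = 0.106) and Socs3 one of 0.47 (adjusted p = 0.243). The 3 increases and 2 decreases among 7 members stand beside 12.1% of genes called higher and 12.1% called lower in this comparison. The libraries of the 2 Treg groups were apart for all 7 members, as they were for 54.1% of the genes tested. Il2ra lost its call without monoclonal Treg replicate B (adjusted p = 0.17), without polyclonal Treg replicate A (0.217) or B (0.103), with CD3 scaling (0.0542) and with no filter on low values (0.1). Socs1 lost it without monoclonal Treg replicate A (0.0768) or polyclonal Treg replicate A (0.0916), and Socs2 without monoclonal Treg replicate A (0.053), while Il2rb and Cish kept theirs in every alternative run. Of the dendritic cell markers, 11 of 13 were higher in monoclonal than in polyclonal Treg cells, and of the myeloid markers 9 of 11. Their part in the results for the members was not tested.

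In non-Treg cells Il2rb and Cish showed the same pair of changes. Il2rb fell by 1.16 ± 0.15 in monoclonal against polyclonal non-Treg cells (log2 scale; limma, adjusted p = 6.24e-05) and Cish rose by 0.92 ± 0.16 (adjusted p = 8.41e-04), in a comparison where 12.1% of genes were called higher and 7.35% lower. The remaining 5 members did not pass. Their log2 fold changes were 0.54 for Il2ra (adjusted p = 0.1002), 0.54 for Socs1 (0.0777), 0.54 for Socs2 (0.255), 0.56 for Socs3 (0.189) and -0.01 for Il2rg (0.9751). Without monoclonal non-Treg replicate B 4 members were called, and DESeq2 called 5. Scaling to the CD3 genes, which were lower in monoclonal non-Treg libraries, moved the median of all genes here by 0.47 and brought the count of members called to 6, with Il2rg at 0.49 (adjusted p = 0.123) as the exception. Relative to that shift the values were 0.56 for Il2ra and Socs1, 0.54 for Socs2, 0.59 for Socs3 and 0.95 for Cish. Of the dendritic cell markers, 12 of 13 were higher in monoclonal non-Treg cells, as was Foxp3, by 2.10 ± 0.12 (limma, adjusted p = 1.31e-08). Whether either carries part of the members' values was not tested.

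**Figure D3:**
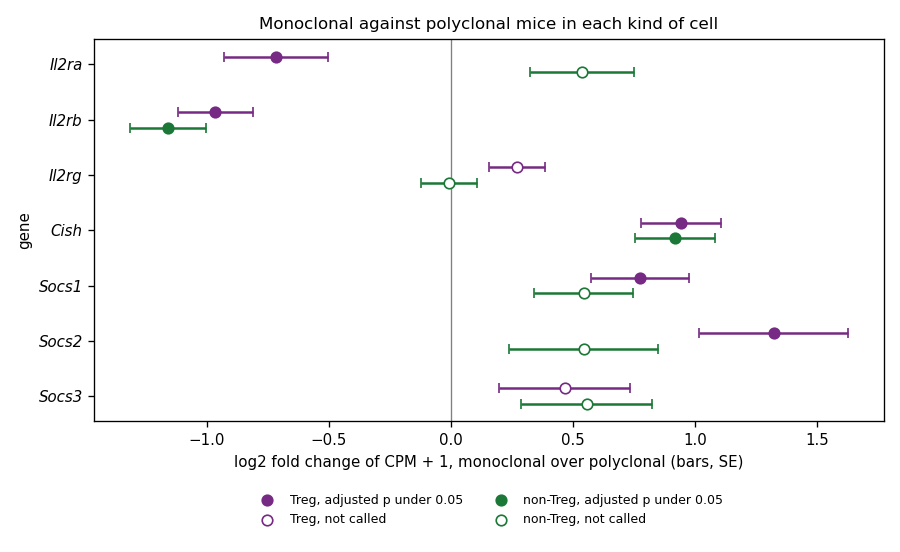
Monoclonal over polyclonal log2 fold change of CPM + 1 for each gene, with SE bars, in Treg cells (purple) and non-Treg cells (green); filled points passed an adjusted p of 0.05. Il2rb lies at -0.96 and -1.16 and Cish at 0.94 and 0.92, the only 2 genes called in both kinds of cells.

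Ordered by mean level, Il2ra and Il2rb were highest in polyclonal Treg cells and Cish, Socs1 and Socs2 in monoclonal Treg cells. Of the 21 neighbouring pairs in the orders of the 7 members, 12 differed at an adjusted p under 0.05. For Il2rb the order was polyclonal Treg, monoclonal Treg, polyclonal non-Treg and monoclonal non-Treg, and each step passed (limma, adjusted p = 4.03e-04, 0.00113 and 6.24e-05). For Cish it was monoclonal Treg, polyclonal Treg, monoclonal non-Treg and polyclonal non-Treg, and each step passed here too (limma, adjusted p = 7.86e-04, 2.30e-05 and 8.41e-04). Socs1 and Socs2 had the order of Cish, but their lowest 2 groups did not differ beyond the spread, nor did those of Il2ra. No neighbours in the order of Il2rg or Socs3 differed.

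Divided by transcript length, which allows genes to be set side by side, the γ chain was the most abundant of the receptor chains in every library. Il2rg averaged 604 ± 41.1 CPM per kb in monoclonal Treg, 464 ± 25.8 in monoclonal non-Treg, 502 ± 54.5 in polyclonal Treg and 466 ± 2.75 CPM per kb in polyclonal non-Treg libraries (SD, n = 2 each). Il2rb averaged 176 ± 26.1, 44.5 ± 9.97, 342 ± 26.6 and 98.8 ± 5.14 CPM per kb in the same groups, and Il2ra averaged 116 ± 16.8, 16.2 ± 6.91, 191 ± 17.3 and 10.6 ± 0.363 CPM per kb. A ratio of 2 genes within a library does not depend on how libraries are scaled. The per-length ratio of Il2ra to Il2rg was 0.223 and 0.165 in monoclonal Treg libraries and 0.0438 and 0.0255 in monoclonal non-Treg libraries. It was 0.438 and 0.3302 in polyclonal Treg libraries and 0.0223 and 0.0232 in polyclonal non-Treg libraries. The ratio of Il2ra to Il2rb was 0.660 and 0.663 in monoclonal Treg libraries and 0.628 and 0.494 in polyclonal Treg libraries. In non-Treg libraries it was 0.409 and 0.303 in monoclonal mice and 0.101 and 0.114 in polyclonal mice. Polyclonal non-Treg libraries thus held the lowest α-chain share and no library of another group overlapped them.

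Among the feedback genes per length, Cish took 47.7% and 50.9% of the summed level of the 4 genes in monoclonal Treg libraries, against 21.3% and 27.4% in monoclonal non-Treg libraries. In polyclonal mice it took 44.2% and 46.2% in Treg libraries, against 20.2% and 19.4% in non-Treg libraries. Socs3 took 26.1% and 22.9% in monoclonal Treg libraries, against 65.1% and 54.2% in monoclonal non-Treg libraries, and 33.4% and 29.2% in polyclonal Treg libraries, against 64.0% and 62.7% in polyclonal non-Treg libraries. Cish was thus the leading feedback transcript of all 4 Treg libraries and Socs3 that of all 4 non-Treg libraries, although the level of Socs3 itself was not shown to differ between the cells.

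**Figure D4:**
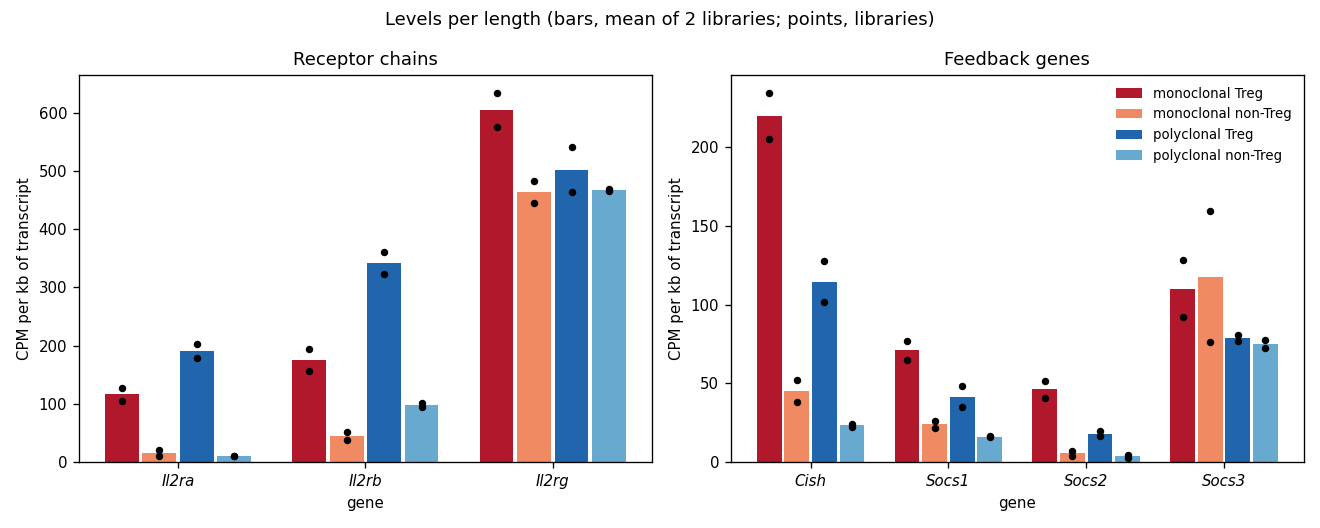
Level per length (CPM per kb of transcript, linear axis from 0) of the receptor chains (left) and the feedback genes (right); bars are means of 2 libraries and points the libraries. Il2rg is the highest receptor bar in each group, and Cish exceeds Socs3 in Treg cells while Socs3 exceeds Cish in non-Treg cells.

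Likeness of profile was measured as the root mean square difference of centred log2 levels over the 8 libraries, among the 10635 genes whose mean log2 level reached 2. The nearest genes to Il2ra were Ppp1r3fos (0.408), Ikzf4 (0.483) and Ikzf2 (0.558), the last pair encoding the Ikaros-family factors Eos and Helios of Treg cells. Those nearest to Il2rb were Ptger2 (0.242), a prostaglandin E2 receptor, Kcnf1 (0.296) and C1qtnf6 (0.297). Cish lay nearest to Sp6 (0.181) and to the costimulatory receptors Tnfrsf18 (0.238, GITR) and Tnfrsf4 (0.249, OX40), and Socs2 to Sp6 (0.296), Bicd1 (0.326) and Tnfrsf4 (0.348). Sp6, a zinc-finger transcription factor, averaged 76.2 CPM (Treg) and 11.5 CPM (non-Treg) in monoclonal mice and 40.4 CPM (Treg) and 7.92 CPM (non-Treg) in polyclonal mice. Socs1 lay nearest to Ndrg1 (0.154), Plcb3 (0.173) and Rarg (0.183). The profile of Il2rg varied little, while Socs3 varied between replicates, at 434 and 208 CPM in the monoclonal non-Treg libraries. Their nearest genes were Gnb1 (0.0371), Rnf114 (0.0492) and Ap1m1 (0.0524) for Il2rg and Tmem160 (0.156), Ndufc2 (0.215) and Tpt1 (0.22) for Socs3. Among the members themselves, Cish and Socs2 were closest (0.352), followed by Il2rg with Socs3 (0.371) and Cish with Socs1 (0.453), while Il2ra and Il2rb were 1.02 apart. These distances are descriptions, since the libraries share groups and depth.

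The ligands of the γ-chain receptors were scarce in these sorted cells. No read of Il2 was found in the 4 monoclonal libraries or in polyclonal Treg replicate A. Polyclonal Treg replicate B had 11 reads, and polyclonal non-Treg replicates A and B had 8 and 46 reads. A count of 0 allows up to 3 reads, or 0.152 to 0.213 CPM depending on the library, and counting error alone is covered by this. Il9 had no read in any library. Il21, a cytokine of follicular helper cells, measured 0 CPM in all monoclonal libraries, 0.995 and 0.558 CPM in polyclonal Treg and 19.9 and 22.5 CPM in polyclonal non-Treg libraries. It fell in polyclonal Treg cells by 3.65 ± 0.41 (log2 scale; limma, adjusted p = 5.42e-05), and it was at least 118-fold lower in non-Treg cells of monoclonal mice than in those of polyclonal mice. Il4, the T helper type 2 cytokine, measured 0 CPM in monoclonal libraries and 1.90 and 2.26 CPM in polyclonal non-Treg libraries, at least 11.6-fold lower in monoclonal non-Treg cells, though edgeR did not call it (adjusted p = 0.0661). Il7 reached 3.22 CPM in monoclonal Treg replicate A and 0.608 CPM in polyclonal Treg replicate B, with 0 elsewhere. Il15 was at most 3.56 CPM, in monoclonal Treg replicate B.

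The list of receptors that share the γ chain, which also held Il13ra1 and Crlf2 of receptors without that chain, was divided. Of these 7 genes 3 rose and 2 fell in monoclonal Treg cells, and 2 rose and 2 fell in polyclonal Treg cells, with list medians of -0.07 and 0.48. Il7r, the IL-7 receptor α chain of naive and memory T cells, measured 1212 and 1293 CPM in monoclonal Treg libraries, against 511 and 464 CPM in monoclonal non-Treg libraries. In polyclonal mice it measured 212 and 180 CPM in Treg libraries, against 792 and 903 CPM in non-Treg libraries. Its Treg effect thus had opposite signs, 1.36 ± 0.12 in monoclonal mice (limma, adjusted p = 3.47e-06) and -2.11 ± 0.12 in polyclonal mice (adjusted p = 9.76e-08). Il9r, the IL-9 receptor, measured 230 and 230 CPM in monoclonal Treg libraries, against 41.0 and 36.4 CPM in monoclonal non-Treg libraries, and 20.7 and 19.2 CPM in polyclonal Treg libraries, against 34.1 and 43.4 CPM in polyclonal non-Treg libraries. Both monoclonal Treg libraries lay above all others. Il15ra rose in monoclonal Treg cells by 0.98 ± 0.25 (limma, adjusted p = 0.0107) and Il4ra fell by 0.41 ± 0.14 (adjusted p = 0.0424), while in polyclonal Treg cells Il4ra rose by 0.48 ± 0.14 (adjusted p = 0.048) and Il21r by 0.51 ± 0.12 (adjusted p = 0.0142). Il13ra1, a chain of the IL-13 receptor, fell in monoclonal Treg cells by 2.38 ± 0.64 (limma, adjusted p = 0.0141), a call not made by edgeR (adjusted p = 0.118). With CD3 scaling Il15ra lost its call in monoclonal mice (0.44, adjusted p = 0.274), as did Il4ra (adjusted p = 0.344) and Il21r (adjusted p = 0.285) in polyclonal mice, and edgeR did not call Il4ra there (adjusted p = 0.075).

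Signal transducers downstream of the receptor moved in both directions. Of 14 transducers 2 rose and 3 fell in monoclonal Treg cells, and 3 rose and 3 fell in polyclonal Treg cells, with medians of 0.10 in both. Over all genes tested, 10.8% rose and 13.6% fell in monoclonal Treg cells, and 4.63% rose and 3.28% fell in polyclonal Treg cells. With CD3 scaling 0 rose and 5 fell in monoclonal Treg cells and none was called in polyclonal Treg cells, where edgeR called 2 higher and 3 lower and 4 were higher and 4 lower at an unadjusted p under 0.05. Stat5b rose in monoclonal Treg cells by 0.59 ± 0.11 (limma, adjusted p = 0.00155), but stood at 0.02 (adjusted p = 0.96) with CD3 scaling, and in polyclonal Treg cells its paralogue Stat5a rose by 0.70 ± 0.14 (adjusted p = 0.00535) and Jak3 by 0.61 ± 0.15 (adjusted p = 0.0207). With CD3 scaling neither passed (limma, adjusted p = 0.0764 for Stat5a and 0.219 for Jak3). In polyclonal Treg against non-Treg cells CD3 scaling moved the median of all genes by 0.0167. Its factors for polyclonal Treg replicates A and B were unlike, at 0.900 and 1.27, and their part in the lost polyclonal calls was not tested. The difference of the Treg effects between the mice passed for none of the 3 (limma, adjusted p = 0.2 for Stat5a, 0.318 for Stat5b and 0.194 for Jak3). Pik3cd, a phosphoinositide 3-kinase subunit, fell in Treg cells of both kinds of mice, by 0.79 ± 0.10 in monoclonal and 0.58 ± 0.10 in polyclonal ones, the call in polyclonal mice being lost with CD3 scaling (adjusted p = 0.26). Syk, a kinase abundant in B cells and myeloid cells, stood at 131 and 97.5 CPM (monoclonal Treg) and 447 and 565 CPM (monoclonal non-Treg). In polyclonal libraries it stood at 5.73 to 13.8 CPM. It moved with the dendritic cell markers given above, and the part of those cells was not tested. Between the mice, 3 transducers rose and 4 fell in Treg cells and 4 rose and 4 fell in non-Treg cells. Lck, the kinase of the CD4 co-receptor, fell by 0.60 ± 0.13 in monoclonal Treg cells (limma, adjusted p = 0.00336) and by 0.86 ± 0.13 in monoclonal non-Treg cells (adjusted p = 1.85e-04), and Ptpn11 fell in both as well, by 0.68 ± 0.13 and 1.06 ± 0.13. In non-Treg cells CD3 scaling ended the calls of Lck (-0.35, adjusted p = 0.255) and Ptpn11 (-0.56, adjusted p = 0.129), and 0 transducers were lower there, against 4 without that scaling. Jak1 was lower in monoclonal non-Treg cells by -0.45 ± 0.10 (limma, adjusted p = 0.00519), but at 0.06 with CD3 scaling.

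Among genes known as targets of IL-2 and STAT5, more rose than fell in Treg cells, by a margin that depended on the scaling in monoclonal mice. Of 37 such genes 20 rose and 6 fell in monoclonal Treg cells, with a median of 0.60, where 10.8% of all genes rose and 13.6% fell. In polyclonal Treg cells 23 rose and 2 fell, with a median of 0.98, where 4.63% of all genes rose and 3.28% fell. The list holds Foxp3, whose rise was set by the sort. Its genes were counted without regard to the direction in which IL-2 moves each, so the counts do not measure IL-2 signalling. With CD3 scaling the counts were 15 higher and 11 lower in monoclonal and 20 higher and 1 lower in polyclonal mice. Foxp3, Ctla4 and Ikzf2 had the lowest adjusted p among the increases in monoclonal mice and Foxp3, Ikzf4 and Ikzf2 in polyclonal mice, all known genes of Treg cells, which were sorted by the Foxp3 reporter. Bcl2, a survival factor, measured 97.6 and 93.2 CPM in monoclonal Treg libraries, against 310 and 263 CPM in monoclonal non-Treg libraries, and 497 and 385 CPM in polyclonal Treg libraries, against 225 and 270 CPM in polyclonal non-Treg libraries. It fell in monoclonal Treg cells by 1.57 ± 0.15 (limma, adjusted p = 5.39e-06) and rose in polyclonal Treg cells by 0.83 ± 0.15 (adjusted p = 0.00249; 0.0888 with CD3 scaling). Pim1, a serine/threonine kinase induced by STAT5, stood at 1528 and 1565 CPM in monoclonal Treg libraries, with 528 and 389 CPM in the non-Treg cells of these mice, against 270 and 354 CPM in polyclonal Treg libraries and 162 and 151 CPM in polyclonal non-Treg libraries. The 2 groups of each comparison were apart, and Pim1 rose by 2.32 ± 0.16 in monoclonal against polyclonal Treg cells (limma, adjusted p = 9.59e-08), the same direction as Cish, Socs1 and Socs2. The list as a whole was divided there, with 8 genes higher and 12 lower and a median of -0.26. Gzmb, the cytotoxic granule protease granzyme B, and Klf2, a transcription factor of lymphocyte recirculation, were among the higher, by 2.74 ± 0.41 and 1.01 ± 0.15. Ecm1 was among the lower, by -2.34 ± 0.19. In monoclonal against polyclonal non-Treg cells 8 target genes rose and 5 fell, with a median of 0.14, or 15 and 3 with CD3 scaling. Tfrc, the transferrin receptor, rose by 2.11 ± 0.15 and Igf1r fell by 1.68 ± 0.20.

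The other inhibitors of JAK-STAT signalling gave few calls in Treg against non-Treg cells, near the shares over all genes tested. Of 16 such genes 2 rose and 3 fell in monoclonal Treg cells (median -0.13), where 10.8% of all genes rose and 13.6% fell. In polyclonal Treg cells 1 rose (median 0.07), where 4.63% of all genes rose and 3.28% fell. With CD3 scaling 0 were higher and 9 lower in monoclonal Treg cells, and the 1 call in polyclonal Treg cells was lost. Pias3, an inhibitor of STAT3, measured 109 and 101 CPM in monoclonal Treg libraries, against 49.1 and 47.1 CPM in monoclonal non-Treg libraries, a log2 fold change of 1.11 ± 0.18 (limma, adjusted p = 4.09e-04), and 45.8 to 63.6 CPM in the polyclonal libraries. Socs4 rose in monoclonal Treg cells by 0.88 ± 0.21 (limma, adjusted p = 0.00792) and Socs5 in polyclonal Treg cells by 0.77 ± 0.19 (adjusted p = 0.024). With CD3 scaling the adjusted p was 0.0556 for Pias3 (0.54), 0.376 for Socs4 (0.32) and 0.158 for Socs5. Ptpn6, the phosphatase SHP-1, fell in monoclonal Treg cells by 1.28 ± 0.13 (limma, adjusted p = 1.06e-05). It measured 507 and 510 CPM in monoclonal non-Treg libraries, the group with the highest dendritic cell markers. The part of dendritic cells in this result was not tested. In monoclonal against polyclonal Treg cells 1 inhibitor rose and 5 fell, among them Socs5 by 1.04 ± 0.19, and the ubiquitin ligases Cbl by 0.82 ± 0.15 and Cblb by 0.60 ± 0.12; with CD3 scaling 2 were lower and Cblb was not (adjusted p = 0.0713). In non-Treg cells 2 rose between the mice, Usp18 by 1.42 ± 0.28 and Ptpn6 by 0.68 ± 0.13. The 4 subunits of the SOCS-box ubiquitin ligase in the table (Tceb1, Tceb2, Cul5, Rnf7) gave no call over the 5 comparisons in limma, edgeR or DESeq2 and 2 results at an unadjusted p under 0.05. With CD3 scaling 1 was lower in monoclonal Treg against non-Treg cells and 1 in the difference.

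A list of gp130 receptors also held receptors outside gp130 such as Il10ra, Il12rb1 and Csf3r. Its genes fell more often than they rose in monoclonal Treg cells. Of 11 tested 1 rose and 5 fell there (median -0.62), where 10.8% of all genes rose and 13.6% fell. In polyclonal Treg cells 1 rose and 2 fell (median -0.26), where 4.63% of all genes rose and 3.28% fell. Other tests did not keep that margin in polyclonal mice, with 1 higher and 1 lower in edgeR and 2 higher and 1 lower in DESeq2. Il6st, which encodes gp130, measured 115 and 116 CPM in monoclonal Treg libraries, against 486 and 475 CPM in monoclonal non-Treg libraries, and 572 and 438 CPM in polyclonal Treg libraries, against 490 and 474 CPM in polyclonal non-Treg libraries. Monoclonal Treg libraries lay far below all others, a fall of 2.05 ± 0.13 against monoclonal non-Treg cells (limma, adjusted p = 2.30e-07) and of 2.10 ± 0.13 against polyclonal Treg cells (adjusted p = 5.37e-08), while Socs3 passed in neither comparison. Il6ra, the IL-6 receptor α chain, fell with it by 0.99 ± 0.11 and 1.11 ± 0.11. Il12rb1, a chain of the IL-12 and IL-23 receptors, rose in monoclonal Treg cells by 2.15 ± 0.19 (limma, adjusted p = 2.75e-06), and Il10ra in polyclonal Treg cells by 0.62 ± 0.13 (adjusted p = 0.00791; 0.219 with CD3 scaling). Il10ra was also higher in monoclonal than in polyclonal cells, by 1.402 ± 0.13 in Treg and 2.02 ± 0.13 in non-Treg cells, as were Lifr and Csf3r, which, like Syk, moved with the markers of other cells; the part of those cells was not tested. Between the mice 3 of the 11 rose and 2 fell in Treg cells, and 5 rose and 3 fell in non-Treg cells, where 5 were higher and none of the 3 lower passed with CD3 scaling.

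**Figure D5:**
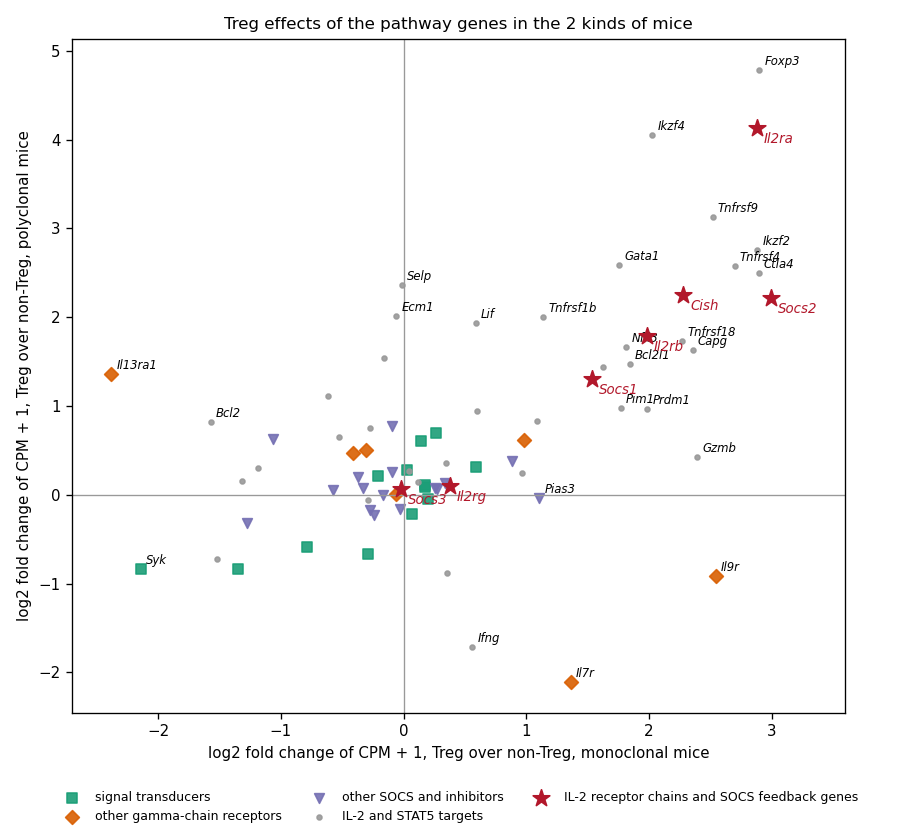
Treg over non-Treg log2 fold change of CPM + 1 in monoclonal (horizontal) and polyclonal (vertical) mice for genes of the pathway lists, 1 point a gene; red stars are the receptor chains and feedback genes. Il2ra, Il2rb, Cish, Socs1 and Socs2 lie in the upper right with Foxp3 and Ikzf2, Il7r and Il9r at the lower right, and Bcl2 at the upper left.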

How the data were processed

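Per the labels' protocols, messenger RNA was taken with poly-dT beads from RNA of a Nucleospin RNA XS kit and sequenced strand-aware on a HiSeq2500, as single reads of 50 bp. Tools named in the submitters' processing notes, with no role given, are STAR 2.4.1a, HOMER 4.7, Trimmomatic 0.33, CASAVA 1.8.2, FastQC 0.10.1 and edgeR (no version), on build mm9. The deposited values are CPM of 24016 genes, each with 1 RefSeq transcript, as the authors made them. Each library summed to 1000000, and 100% of values were whole reads within 0.01 read, so reads were recovered. The sources used here do not state how reads matching several genes were counted; no member overlapped another gene of the table.

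limma 3.58.1 (R 4.3.3, trend and robust) was run on log2(CPM + 1) for 12881 genes that reached 1 CPM in 2 or more libraries. The pseudocount understates the change of low genes. All 8 libraries shared 1 fit with a mean per group (4 residual degrees of freedom and a median of 10 prior ones). All p-values are 2-sided and were adjusted by Benjamini and Hochberg's method across the genes tested, with a threshold of 0.05. Alternatives were pseudocounts of 0.25 and 4 CPM, no filter, only the libraries compared, a replicate block, TMM and CD3 scaling, edgeR 4.0.16 and DESeq2 1.42.0 on the recovered reads, and each library left out. The fits were tested on simulated data. Replicates of a group differed by more than counting error (chi-square per gene 7.37 to 42.8), so none was the same library sequenced again. Libraries prepared separately from the same animal or RNA cannot be told from separate animals in this way. Floors cover counting error alone: the reads carry no molecular identifiers.

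The members and the 13 gene lists (7 of pathway genes, 6 of cell markers) were chosen with earlier results of these data known. All members were named. Of each pathway list the text could name the 3 genes with the lowest adjusted p each way among those called with the groups apart, and any gene of a list of at most 6. A few further values of listed genes were chosen after they were seen, and 2 listed genes are counted with their lists but not reported here by name or plotted.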

Additional observations from a re-analysis of the deposited data

Results flagged for a closer look

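These results had a Treg effect that differed between monoclonal and polyclonal mice by the test of the difference itself (limma, log2 scale, monoclonal minus polyclonal). Il2ra was the 1 member, at -1.25 (adjusted p = 0.0188). Among the receptors that share the γ chain, the difference was 3.47 for Il7r (adjusted p = 1.39e-07), 3.46 for Il9r (4.63e-06), -0.817 for Il21r (0.00733) and -0.884 for Il4ra (0.011). Il13ra1, listed with them though its receptor lacks that chain, gave -3.74 (0.0186), and its monoclonal Treg libraries measured 7.36 and 0.395 CPM. Il21 gave 3.65 (0.00169), but it had 0 reads in all monoclonal libraries, so this value depends on the pseudocount, and edgeR did not call it. Among transducers Syk gave -1.31 (0.0139). Among inhibitors Pias3 gave 1.14 (0.0105), Ptpn6 -0.965 (0.00514) and Usp18 -1.69 (0.0152).

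Of the IL-2 and STAT5 targets, Klf2 differed by 1.24 (limma, adjusted p = 0.00299), Prdm1 by 1.03 (0.0232), Pim1 by 0.789 (0.0375), Bcl2 by -2.4 (1.95e-05) and Foxp3 by -1.89 (2.42e-05). Of the gp130 receptors, Il6st differed by -2.1 (1.95e-05) and Il6ra by -0.725 (0.0124). Il12rb1, listed with them though outside gp130, differed by 1.53 (0.00285). With CD3 scaling the positive differences of Klf2 (0.65, adjusted p = 0.156), Prdm1 (0.45, 0.352), Pim1 (0.20, 0.661), Pias3 (0.56, 0.207) and Il12rb1 (0.96, 0.0583) did not pass, and edgeR did not call Pim1 (adjusted p = 0.0814). Dendritic cell markers were higher in monoclonal non-Treg than in monoclonal Treg libraries, and their part in these differences was not tested.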

How the results depend on the processing

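Of the 19 calls among the members, 14 kept their call and direction in every alternative run. The other 5 were Il2rg in monoclonal Treg against non-Treg cells, the difference for Il2ra, and Il2ra, Socs1 and Socs2 in monoclonal against polyclonal Treg cells. Members called in the difference numbered 0 with no filter on low values and 0 to 1 when a library was left out. They numbered 3 to 5 in monoclonal against polyclonal Treg cells when a library was left out, and in non-Treg cells 5 with DESeq2, 6 with CD3 scaling and 2 to 4 when a library was left out. The cause was not tested. Il2rg in monoclonal Treg against non-Treg cells was -0.19 with CD3 scaling. Among results that passed no test, signs changed as follows. Il2rg in non-Treg cells between the mice was 0.0643 with DESeq2, 0.0693 with TMM scaling, 0.0698 with edgeR and 0.49 with CD3 scaling, and -0.0664 to 0.0471 when a library was left out. Il2rg in polyclonal Treg against non-Treg cells was -0.0104 to 0.21 and Socs3 in monoclonal cells -0.55 to 0.51 when a library was left out. The difference for Cish was -0.0354 with DESeq2, -0.0372 with TMM scaling, -0.0658 with edgeR, -0.56 with CD3 scaling and -0.19 to 0.24 when a library was left out. With CD3 scaling, which moved the median of all genes by -0.55, the differences were -0.39 for Il2rb, -0.31 for Il2rg and -0.34 for Socs1. Leaving out a library gave -0.0337 to 0.42 for Il2rb and -0.62 to 0.44 for Socs3.

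Deviations of same-lettered libraries correlated at -0.093 to 0.0969 over genes, which describes all genes together. A factor that same-lettered libraries share for some genes was not tested, and the sources used here do not state what A and B stand for. With the letter as a replicate block the members called numbered 6 and 5 for the Treg effects in monoclonal and polyclonal mice, 1 for their difference, and 5 and 2 between the mice in Treg and non-Treg cells, as without it, and no call of a member changed; the difference for Il2ra was -1.25 (adjusted p = 0.00935). Where a left-out library left 1 in its group, that one was assumed to vary like the other groups. With 2 libraries a group, changes the size of the SE given cannot be told from the spread.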
